A study of Mus musculus with 4 samples.

Results

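The hypoxic tumor cells of subcutaneous Lewis lung carcinoma (LLC) tumors were taken as the tumor cells in which 5 transcripts, Adm, Bnip3, Ndrg1, Egln3 and Vegfa, held at least 0.3% of all unique molecular identifiers (UMIs, each standing for 1 captured RNA molecule). A tumor cell was a barcode with at least 2000 UMIs, at most 20% mitochondrial UMIs, at least 3 UMIs of Rhox5, a homeobox gene that this tumor line transcribes, and no UMI of the leukocyte genes Ptprc and Csf1r. By these gates 735 of 26118 tumor cells, out of 55805 barcodes in all, were hypoxic. The cells were thus selected on measured levels of these genes, and every value of the 5 genes, and of any gene of the same cells, is given as a description with no test.

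LLC is a mouse lung carcinoma line, grown here under the skin of female C57BL/6N mice of 6-8 weeks. Tumors received 24 Gy in 3 fractions of 8 Gy (RT), or a mock treatment (NT), and were dissociated 72 h later for microwell-based single-cell RNA sequencing of 3′ ends. The RT group held 3 libraries of 1 tumor each (RT1, RT2 and RT3), whereas 3 NT tumors were mixed into 1 library, so that no spread between NT tumors can be had and no test between NT and RT was possible. Dissociation loses the place of a cell in the tumor, and oxygen itself was not measured. The RT2 library stood apart from the others before any result, since its table held no barcode above 11.95% mitochondrial UMIs, while barcodes of the other libraries reached at least 91.46%. No barcode of the hypoxic cells was shared between libraries.

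Cells sense oxygen through prolyl hydroxylases (Egln1, Egln2 and Egln3), which use oxygen to mark the alpha subunits of hypoxia-inducible factors (HIF) for destruction by the Vhl ubiquitin ligase. When oxygen is short, HIF persists, pairs with Arnt and binds hypoxia response elements built around the letters ACGTG or GCGTG. Known HIF targets move glucose into glycolysis, turn over mitochondria, call in blood vessels and remodel collagen, and in solid tumors they mark regions far from perfused vessels. Of the selecting genes, Adm encodes the vasodilator peptide adrenomedullin, Bnip3 a mitophagy receptor, Ndrg1 a stress-induced cytoplasmic protein, Egln3 an oxygen-sensing hydroxylase that is itself a HIF target, and Vegfa the main angiogenic growth factor.

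The hypoxic share of tumor cells differed among irradiated tumors by more than it differed between the treatments. In NT, 191 of 6050 tumor cells were hypoxic (3.16%, exact 95% Clopper-Pearson interval 2.73 to 3.63). The share was 4.54% in RT1 (294 of 6475 cells, 4.05 to 5.08), 1.25% in RT2 (78 of 6234, 0.99 to 1.56) and 2.34% in RT3 (172 of 7359, 2.00 to 2.71). These intervals cover counting error only, and the 4 of them do not overlap. The RT mean was 2.71% ± 1.68 (SD, n = 3), a difference from the NT library of -0.447 percentage points that is smaller than this SD, and NT lay inside the range of the RT libraries. Without RT2 the RT mean was 0.282 points above NT, while the difference was -1.36 points without RT1 and -0.261 without RT3. At a threshold of 0.2% it was -0.757 points. With a gate of at most 10% mitochondrial UMIs, which lies inside the range of the RT2 table, the difference was -0.407 points.

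**Figure D1:**
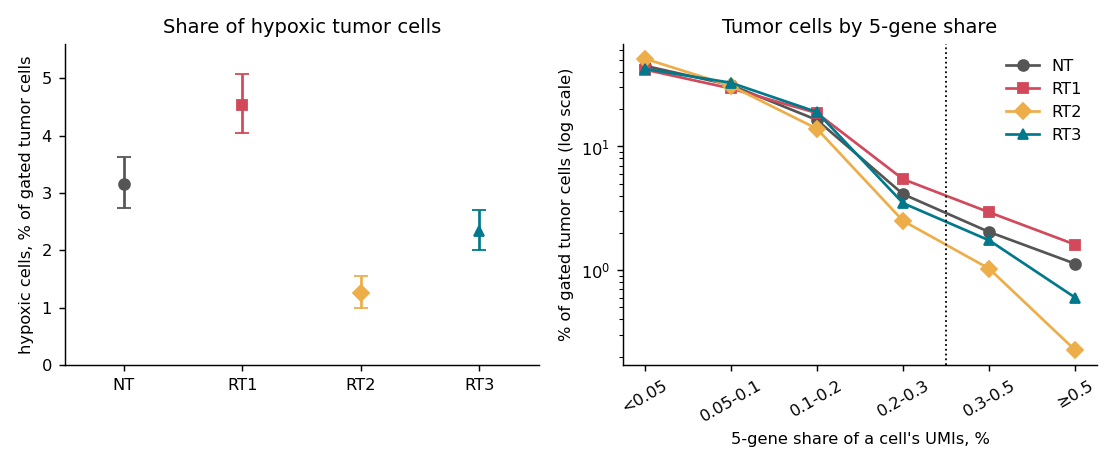
Left, hypoxic cells as a percentage of gated tumor cells in each library, with exact 95% intervals; right, the percentage of tumor cells (log scale) in 6 classes of the 5-gene share of UMIs, the dotted line marking the 0.3% threshold. RT1 is highest (4.54%) and RT2 lowest (1.25%), with NT between them, and no class forms a second peak above the threshold.

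The threshold cut a continuous range. Just inside it, between 0.30% and 0.35%, lay 225 cells, and just outside, between 0.25% and 0.30%, lay 353. Of the hypoxic cells, 230 reached 0.5% and 30 reached 1%. The highest share in a single cell was 1.57%, in NT. The median 5-gene share of the hypoxic cells was 0.437% in NT, 0.421% in RT1, 0.371% in RT2 and 0.401% in RT3, against 0.0479% to 0.0575% in the other tumor cells of the same libraries. In 143 cells 1 gene alone reached the threshold. All 5 genes were detected in 497 cells, 4 genes in 153, 3 in 57, 2 in 22 and 1 in 6, a count that the selection on these genes shapes. The median depth of the hypoxic cells was 7195 UMIs in NT, 6373 in RT1, 9312 in RT2 and 7020 in RT3, each below the median of the other tumor cells (8397, 6769, 9614 and 7267).

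Levels below are UMIs summed over the cells of a library and given as counts per 1000000 (CPM), and ratios are differences of log2(CPM + 1) between hypoxic and other tumor cells of the same library. Adm, which weighed most in NT, stood at 1623 CPM in NT, 1217 in RT1, 1219 in RT2 and 1228 in RT3, against 116, 149, 172 and 140 CPM in other tumor cells. The angiogenic ligand Vegfa varied least, at 502, 504, 420 and 427 CPM against 66.1, 73.9, 54.4 and 65.1. Ndrg1 varied most, from 863 CPM in NT to 1846 CPM in RT1, and in RT1 it supplied 36.5% of the UMIs of the 5 genes, against 17.3% in NT. Egln3 was also the most widely seen in other tumor cells, with a UMI in 79.9% of them in NT and 65.5% to 70.4% in the RT libraries. Each selecting gene was also read in cells chosen on the other 4 genes alone, at 0.24% of UMIs. The log2 ratio to the remaining tumor cells, as a mean ± SD over the 4 libraries, was then 2.57 ± 0.69 for Adm, 2.75 ± 0.14 for Bnip3, 2.43 ± 0.34 for Ndrg1, 1.83 ± 0.16 for Egln3 and 2.48 ± 0.10 for Vegfa, higher in 4 of 4 libraries for every gene. Adm was the least even, with a ratio of 1.64 in RT2 and 3.32 in NT.

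Of the genes fixed as markers of the tumor line, only some were found. Rhox5, on which they were gated, stood at 927, 1161, 1210 and 1105 CPM in NT, RT1, RT2 and RT3, slightly below other tumor cells (1124, 1391, 1235 and 1264). Krt8, an epithelial keratin not used for selection, stood at 647, 421, 507 and 617 CPM, lower than in other tumor cells of every library (ratio -0.29 ± 0.17), while the second keratin, Krt18, was low at 7.02 to 16.8 CPM. The other 6 of the 8 listed markers in the tables, Krt7, Krt19, Xlr3a, Xlr4a, Trap1a and Cdkn2a, were at 0 in the hypoxic cells and at no more than 0.302 CPM in other tumor cells. The list summed to 428 to 664 CPM in hypoxic cells and to 23.2 to 35.4 CPM in leukocyte barcodes. The summed level of the 12 macrophage markers was 39.8, 109, 80.1 and 57.3 CPM in the hypoxic cells of NT, RT1, RT2 and RT3, compared with 26.4, 112, 144 and 87.1 CPM in other tumor cells and 22935 to 38904 CPM in leukocyte barcodes (at least 2 UMIs of Ptprc and Csf1r, none of Rhox5). Lyz2 was the most abundant of these markers, and Fcgr1 was at 0 in hypoxic cells. Markers of monocytes, neutrophils, dendritic cells, B cells, endothelium and red cells summed to at most 35.1 CPM each in the hypoxic cells of any library. The T and NK cell list stood at 48.3 CPM in RT2, where Gzmb was its most abundant member, and at 1.24 to 2.19 CPM in the other libraries. Fibroblast genes did not separate the cells, since their sum was 1108 to 1799 CPM in hypoxic and 915 to 1657 CPM in other tumor cells, most of it Col3a1. Leukocyte barcodes also reached the 5-gene threshold, in 2.97% of NT, 2.99% of RT1, 2.12% of RT2 and 1.46% of RT3, so that the threshold by itself did not separate tumor from immune cells.

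Against the other tumor cells, 29 of 5915 genes tested (0.49%) were higher by a log2 ratio of at least 1 in all 4 libraries, with the selecting and gating genes left out of the count. Without RT2 the count was 44. Genes entered by their mean over hypoxic and other tumor cells (at least 20 CPM), and 8 of the 29, Nos2, Car9, P4ha2, Tnfrsf9, Ankrd37, Homer1, Dclk1 and Gys1, were under 20 CPM in other tumor cells and entered only through the hypoxic cells, which favours a positive ratio. The median ratio of all genes tested was -0.07. Because the same cells' RNA set the 5-gene share, these differences describe the selection and are no independent evidence. The 29 genes were led by Nos2, inducible nitric oxide synthase (3.88 ± 1.30, mean log2 ratio ± SD, n = 4 libraries), Car9, a cell-surface carbonic anhydrase that exports acid (3.57 ± 0.81), P4ha2, a collagen prolyl hydroxylase (2.94 ± 0.23), Hmox1, heme oxygenase (2.63 ± 1.02), and Ero1l, the endoplasmic reticulum oxidase that forms disulfide bonds (2.58 ± 0.39). Next came Tnfrsf9, the costimulatory receptor 4-1BB (2.55 ± 0.55), Slc2a1, the glucose transporter GLUT1 (2.36 ± 0.52), the ankyrin-repeat gene Ankrd37 (2.35 ± 0.50) and Hilpda, a lipid droplet protein (2.03 ± 0.65). Slpi, a secreted protease inhibitor (1.87 ± 0.64), the vascular peptide Apln (1.80 ± 0.52), the adenylate kinase Ak4 (1.77 ± 0.33), Pgm1 of glycogen metabolism (1.76 ± 0.33), Ankrd44 (1.71 ± 0.20) and Egln1 (1.68 ± 0.21) closed the first 15. Among these 15 genes, the ratio of RT2 was the lowest of the libraries for Nos2, Hmox1, Ero1l, Tnfrsf9, Slc2a1, Hilpda, Ankrd44 and Egln1. It was the highest for Car9, Slpi, Ak4 and Pgm1.

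**Figure D2:**
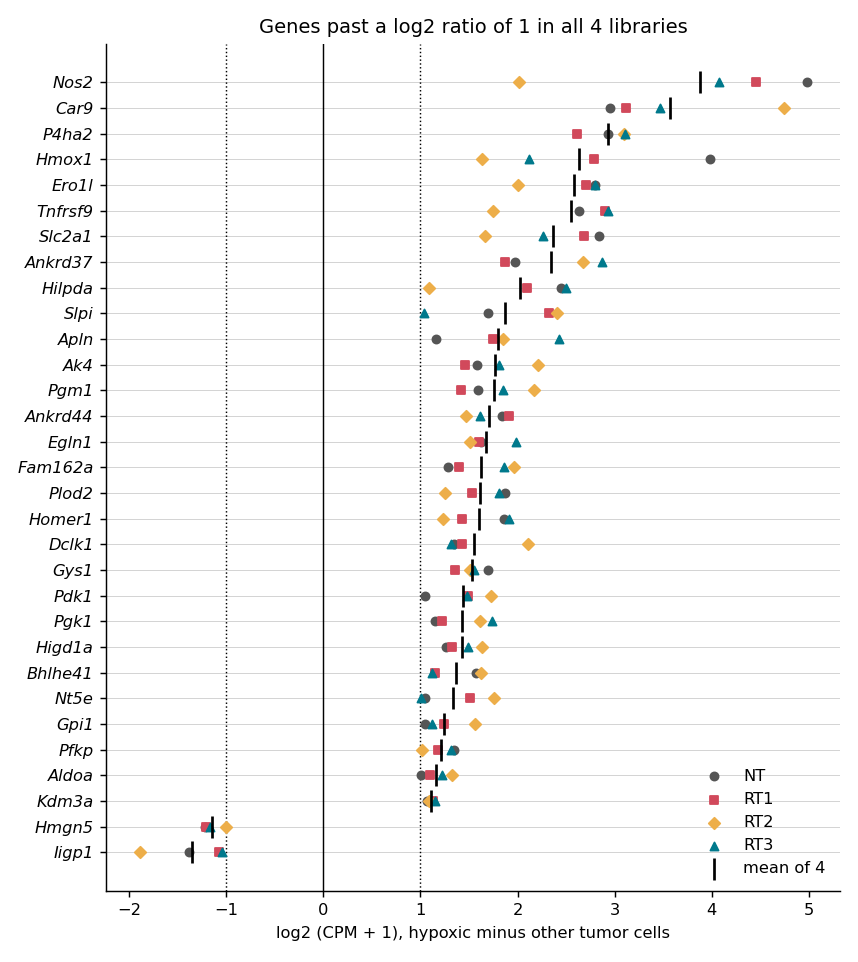
Each row is a gene past a log2 ratio of 1, or below -1, in all 4 libraries; points give the difference of log2(CPM + 1) between hypoxic and other tumor cells in NT, RT1, RT2 and RT3 and bars their mean, with dotted lines at -1 and 1. Of these, 29 genes lie to the right, Nos2 and Hmox1 with the widest spread between libraries (SD 1.30 and 1.02), and Iigp1 and Hmgn5 lie to the left.

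The letters ACGTG were searched on both strands of the 250 bases before the annotated start of each gene (RefSeq, GRCm38.p6, an older build than the one the labels give for the counts), counting a gene once if any of its starts held them. They were present for 15 of the 26 higher genes found in the table (57.7%), for 27.3% of the 4761 tested genes found there, and for 18.5% of all 27025 genes. Of the selecting genes, Bnip3 and Egln3 held a match and Adm held none in this window. Vegfa held none before its start furthest upstream (chr17:46032378-46032627, minus strand). Its only match lay before a start further downstream (chr17:46025164-46025413). The match is a description of letters, not a shown binding site. The windows of Bnip3 (chr7:138909507-138909756, minus strand), Car9 (chr4:43506776-43507025, plus strand), P4ha2 (chr11:54100674-54100923, plus strand) and Pgk1 (chrX:106186850-106187099, plus strand) are printed 5′ to 3′ because they cover a mitophagy, an acid-export, a collagen and a glycolysis gene with matches in different places, with the matched letters in capitals. In Bnip3 the sense and antisense matches overlap to form CACGTG.
Bnip3: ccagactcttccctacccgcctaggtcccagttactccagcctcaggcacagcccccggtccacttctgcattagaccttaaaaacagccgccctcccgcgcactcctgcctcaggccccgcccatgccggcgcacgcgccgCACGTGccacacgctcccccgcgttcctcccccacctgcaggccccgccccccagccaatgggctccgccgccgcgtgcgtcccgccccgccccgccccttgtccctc
Car9: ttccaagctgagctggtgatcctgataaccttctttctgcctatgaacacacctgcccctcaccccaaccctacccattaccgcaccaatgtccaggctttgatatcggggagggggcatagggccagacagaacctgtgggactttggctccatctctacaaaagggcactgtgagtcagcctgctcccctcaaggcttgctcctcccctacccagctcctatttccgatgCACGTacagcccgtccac
P4ha2: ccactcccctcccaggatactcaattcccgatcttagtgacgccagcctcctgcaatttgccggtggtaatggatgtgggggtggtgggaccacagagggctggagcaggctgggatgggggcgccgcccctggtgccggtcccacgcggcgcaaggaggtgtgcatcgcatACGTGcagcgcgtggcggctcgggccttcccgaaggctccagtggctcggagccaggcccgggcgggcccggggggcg
Pgk1: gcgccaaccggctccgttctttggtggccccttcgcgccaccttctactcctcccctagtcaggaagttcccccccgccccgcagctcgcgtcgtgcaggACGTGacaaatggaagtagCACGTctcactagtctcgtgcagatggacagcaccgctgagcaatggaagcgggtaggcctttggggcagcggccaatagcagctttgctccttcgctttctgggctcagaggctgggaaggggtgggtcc
The Car9 match began 18 bases before the start, that of P4ha2 78 bases before it, and the pair in Pgk1 150 and 131 bases before it.

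Of the oxygen-sensing genes, the hydroxylase Egln1 and the demethylase Kdm3a were higher. Egln1, the main HIF hydroxylase, was at 375, 351, 258 and 382 CPM in the hypoxic cells of NT, RT1, RT2 and RT3 and at 121, 115, 89.8 and 95.6 CPM in other tumor cells, with no overlap between the populations. Kdm3a, a histone demethylase that depends on oxygen, had the most even ratio of the 29 genes (1.11 ± 0.04). Of the 8 measured members of this list, these 2 passed in all 4 libraries and none was lower, and the list's median was 0.34 (0.49% passed among all genes tested, with a median of -0.07). Transcripts of the factor itself differed little, with ratios of 0.24 ± 0.13 for Hif1a and 0.17 ± 0.28 for Arnt, while Vhl stood at 0.67 ± 0.13 and was higher in every library.

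Glycolysis genes were higher as a group. Of 19 measured members, 6 passed in all 4 libraries (Slc2a1, Pdk1, Pgk1, Gpi1, Pfkp and Aldoa, whose symbol is listed more than once and is read from its first entry), none was lower, 18 had a positive ratio in every library, and the median was 1.00 against -0.07 over all genes. Of all genes tested, 0.49% passed and 17.2% had a positive ratio in every library. Slc2a1 stood at 682 CPM in NT, 496 in RT1, 250 in RT2 and 398 in RT3, against 76.3 to 94.5 CPM in other tumor cells. The most abundant member was Pgk1, phosphoglycerate kinase, at 4871, 3955, 3371 and 5407 CPM against 2190, 1701, 1101 and 1617. Pdk1, the kinase that holds pyruvate back from mitochondria, had a ratio of 1.44 ± 0.29. Pkm (0.63 ± 0.09), Pgam1 (0.85 ± 0.14) and Ldha (0.84 ± 0.19) were higher in each library but short of 1 in at least 1 of them. The exception was Slc16a1, the lactate carrier MCT1, at -0.06 ± 0.05. Its relative Slc16a3, the lactate exporter MCT4 and a known HIF target, stood at 1.21 ± 0.30 and missed the threshold in NT only (0.96). Summed over the list, glycolysis transcripts took 14953, 12817, 13322 and 14999 CPM in hypoxic cells and 7977, 6900, 5944 and 6676 CPM in other tumor cells.

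A second set covered other HIF targets, of which 11 of 27 measured members were higher and none lower, with a median of 1.06 and a positive ratio in all 4 libraries for 24. Over all genes tested these shares were 0.49% and 17.2%. Of the 11, Nos2, P4ha2, Ankrd37 and Gys1 entered only through the hypoxic cells, so that the filter partly fixed this count, and the other members of the 36 in the tables stayed under it. Collagen enzymes were among them. P4ha2 stood at 85.1, 58.3, 60.3 and 88.9 CPM in the 4 libraries in the same order, where other tumor cells held 6.15 to 10.3 CPM, and Plod2, a collagen lysyl hydroxylase, at 558, 585, 414 and 658 CPM against 152 to 202. P4ha1 had a ratio of 1.06 ± 0.15 and fell short of 1 in RT2. Ero1l stood at 612, 645, 229 and 546 CPM against 56.4 to 97.9. Both collagen enzymes and Ero1l were higher in every library, and RT2 had the lowest level of Ero1l and Plod2. Mitochondrial and metabolic members included Higd1a, a respirasome assembly factor (1.43 ± 0.16), Fam162a (1.63 ± 0.33), Ak4 and Gys1, glycogen synthase (1.53 ± 0.14). Anxa2, an abundant member, barely differed (0.27 ± 0.04), and Tfrc, the transferrin receptor, stood at -0.34 ± 0.42. Car9 was low in absolute terms, at 33.6, 34.2, 65.8 and 40.8 CPM against 1.48 to 3.46, and its ratio rested on at least 54 UMIs in the hypoxic cells of each library.

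Among angiogenic ligands other than Vegfa, only Apln of 4 measured genes passed (0.49% of all genes tested), at 71.5, 94.7, 63.6 and 104 CPM against 16.95 to 31.4. Its mean ratio turned to -0.35 in the 75 cells left without barcodes with at least 2 UMIs of other cell type markers. These markers included fibroblast genes, and RT2 held 5 of the 75 cells. Vegfb had a ratio of -0.21 ± 0.22, Pdgfa 0.14 ± 0.39 and Vegfd -0.35 ± 0.41.

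Nos2 was concentrated in few cells. It stood at 186, 180, 54.8 and 199 CPM in hypoxic cells of the libraries in that order, compared with 4.90, 7.27, 12.9 and 10.9 CPM in other tumor cells, so that RT2 was lowest in the hypoxic cells and highest in the others. A UMI was seen in 51 of 191, 91 of 294, 12 of 78 and 72 of 172 hypoxic cells, and the 10% of hypoxic cells with the most Nos2 held 77.3%, 77.4%, 90% and 59.6% of its UMIs. With each cell thinned to 2000 UMIs, Nos2 was seen in 15.7% of hypoxic cells in NT (exact 95% interval 10.9 to 21.7), 14.6% in RT1, 5.13% in RT2 (1.41 to 12.6) and 24.4% in RT3, against 0.649% to 1.53% of other tumor cells and 1.6% to 4.74% of leukocyte barcodes. In RT2 the hypoxic interval held the leukocyte value. Hmox1, Hilpda and Tnfrsf9 were also found in leukocyte barcodes, in at least 2 libraries each at a level above that of the hypoxic cells. Hmox1 stood at 825, 437, 141 and 667 CPM in hypoxic cells, 44.9 to 153 CPM in other tumor cells and 1471 to 2723 CPM in leukocyte barcodes. Hilpda stood at 448, 414, 134 and 484 CPM in hypoxic cells, 62.6 to 96.2 CPM in other tumor cells and 311 to 695 CPM in leukocyte barcodes. Tnfrsf9 stood at 119, 145, 51.6 and 162 CPM in hypoxic cells of NT, RT1, RT2 and RT3, 14.6 to 20.4 CPM in other tumor cells and 192, 76.5, 96.9 and 125 CPM in leukocyte barcodes, above the hypoxic cells in NT and RT2. Beside these genes, the macrophage sum given above was higher in hypoxic than in other tumor cells in NT and lower in RT1, RT2 and RT3. After barcodes with at least 2 UMIs of leukocyte or endothelial markers were left out, which kept 546 of the 735 cells, 30 genes were higher and the ratios were 3.62 for Nos2, 2.54 for Hmox1 and 2.04 for Hilpda. The metallothioneins Mt1 (1.65 ± 0.61) and Mt2 (1.09 ± 0.74) were above 1 in NT, RT1 and RT3 but not in RT2 (0.78 and 0.06).

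Levels followed the 5-gene share below the threshold as well. Over 6 classes from under 0.05% to 0.5% and above, Slc2a1 went from 67.9 to 1226 CPM in NT, 54.7 to 788 in RT1, 63.3 to 426 in RT2 and 65.8 to 809 in RT3, stepwise in each library. Ero1l and P4ha2 also rose at every step in each library. P4ha2 in cells at 0.2% to 0.3%, which were not counted as hypoxic, was already at 41.3, 23.7, 25.1 and 34.8 CPM, against 4.64 to 6.50 CPM under 0.05%. Nos2 rose at each step in NT, RT1 and RT3, while in RT2 it was 30.5 CPM at 0.1% to 0.2% and 26.9 CPM in the next class. Pgk1 went from 1925 to 5912 CPM in NT and from 1092 to 4726 CPM in RT2, where it dipped to 1046 CPM in the second class. Rrm2, a ribonucleotide reductase subunit of S phase, went the other way, from 347 to 106 CPM in NT, 343 to 86.6 in RT1 and 333 to 79.3 in RT3. In RT2 the top class held only 14 cells and its Rrm2 value of 7.23 CPM rests on 1 UMI. Classes within a library were cut on RNA of the same cells, and the depth of cells was not matched between classes.

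**Figure D3:**
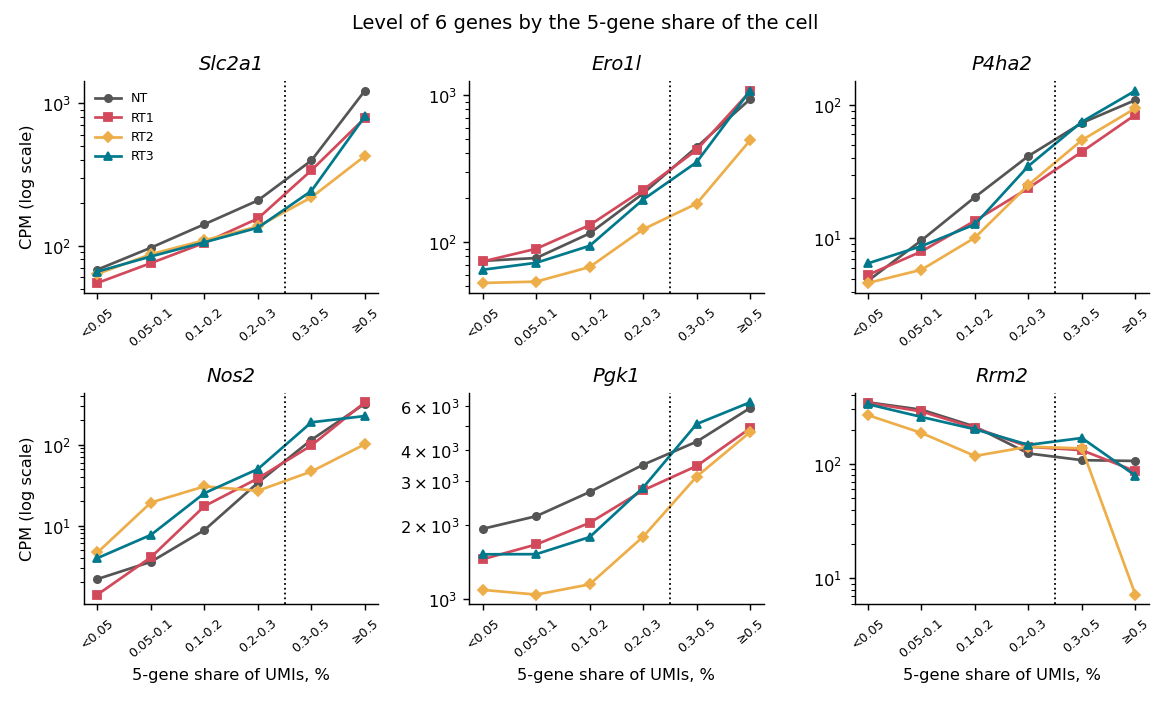
CPM (log scale) of 6 genes in tumor cells grouped by the 5-gene share of their UMIs, 1 line a library, the dotted line marking the 0.3% threshold. Slc2a1, Ero1l, P4ha2, Nos2 and Pgk1 climb toward the right and Rrm2 declines; the RT2 point at 0.5% and above rests on 14 cells.

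Proliferation transcripts were lower as a group in the hypoxic cells of each library. All of the 24 G2/M genes on the list were measured and none passed the threshold in all 4 libraries, but 21 were lower in every library, as were 30.0% of all genes tested. Their median ratio was -0.65, with -1.01 in NT, -0.69 in RT1, -0.57 in RT2 and -0.32 in RT3, against -0.07 for all genes. Cenpa, the centromere histone, had a ratio of -0.91 ± 0.31, Cdk1 -0.88 ± 0.39 and Top2a -0.57 ± 0.26. Mki67 was not uniform, at -0.91 in NT, -0.62 in RT1, 0.19 in RT2 and 0.01 in RT3. Of 21 measured S-phase genes, 19 were lower in every library (30.0% of all genes), with a median of -0.53, and the furthest were Tyms (-1.17 ± 0.25) and Rrm2 (-1.16 ± 0.28). At 2000 UMIs a cell, at least 3 G2/M UMIs were found in 30.9% of hypoxic and 57.0% of other tumor cells in NT, 32.7% and 55.4% in RT1, 24.4% and 35.9% in RT2, and 44.8% and 54.6% in RT3. The 95% intervals of hypoxic and other cells did not overlap in NT, RT1 or RT3 (they cover counting error within a library only, since cells are not replicates), and in RT2 the interval of 15.3 to 35.4 among its 78 cells met that of the other cells (34.7 to 37.2). A lower share of cycling cells and fewer such transcripts per cell cannot be told apart by the summed values.

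Only 2 genes (0.0338%) were lower by a log2 ratio of at least 1 in all 4 libraries, Iigp1, an interferon-induced GTPase (-1.35 ± 0.39), and Hmgn5, a nucleosome-binding protein (-1.15 ± 0.10), and 7 were without RT2. Iigp1 stood at 12.4, 11.0, 25.2 and 15.8 CPM in the hypoxic cells of NT, RT1, RT2 and RT3 and at 34.1, 24.2, 96.4 and 33.8 CPM in the others. The interferon list, which does not hold Iigp1, had a median of -0.11 over 13 measured genes, 1 of them higher and 2 lower in every library, where all genes tested gave 17.2% and 30.0%. Nuclear genes of the respiratory chain had small negative ratios, 23 of 32 in every library (30.0% of all genes) and none past the threshold, with a median of -0.23. The most abundant were Atp5g3 (-0.29 ± 0.06) and Atp5a1 (-0.22 ± 0.06). Mitochondrially encoded genes had a median of -0.06, and their share was part of the gate. For ATF4 stress, the unfolded protein response, p53 targets, mitophagy and autophagy and the matrix genes, no member passed in either direction and the medians lay between -0.07 and 0.03. The medians of MHC class I genes (-0.15), lipid and cholesterol genes (-0.15, with -0.48 in NT), NF-kB and TNF response genes (0.07) and ribosomal protein genes (0.18) were also small. Secreted and immune-related genes had a median of 0.37 over 13, with only Nos2 and Nt5e, the adenosine-producing ecto-enzyme CD73 (1.33 ± 0.36), past the threshold that 0.49% of all genes passed. The chemokines Cxcl1 (0.07 ± 0.37) and Ccl2 (0.18 ± 0.33) varied around 0 between libraries. Ptgs2, the inducible cyclooxygenase, was at 0.75 ± 0.51, from 0.23 in RT2 to 1.45 in NT.

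**Figure D4:**
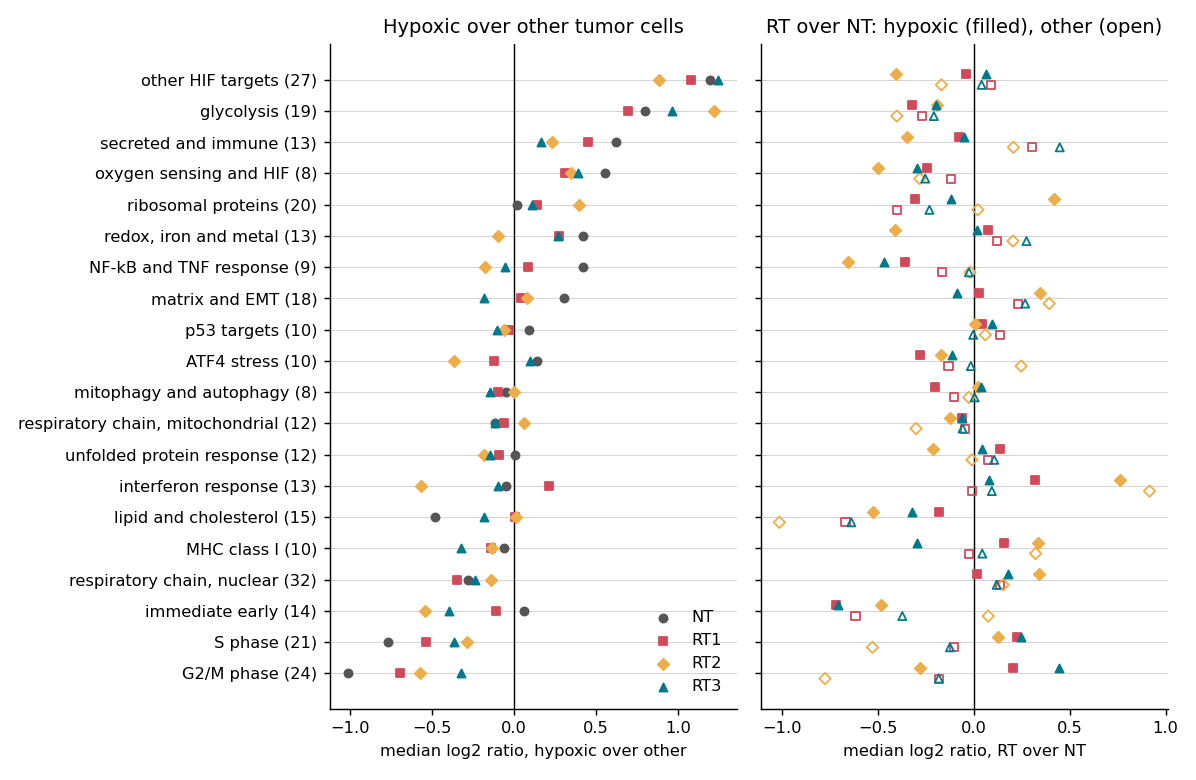
Median log2 ratio of each gene list with at least 8 measured members (their number in brackets), left for hypoxic over other tumor cells in each library, right for each RT library over NT in hypoxic (filled) and other tumor cells (open). Of the lists shown, glycolysis and other HIF targets lie highest on the left in all 4 libraries and S phase and G2/M lowest in NT and RT1; on the right none of the lists shown lies beyond 1 in hypoxic cells.

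The remaining question was whether irradiated tumors differed from the mock-treated library within the hypoxic cells. Each RT library was compared with the same NT library, so the 3 ratios share that library, and values are given for other tumor cells beside them. Of the selecting genes, Adm was lower in each RT library than in NT in the hypoxic cells (-0.41, -0.41 and -0.40 in RT1, RT2 and RT3) and higher in the other tumor cells (0.36, 0.56 and 0.27). Ndrg1 was higher in each RT library, by 1.10, 0.25 and 0.61 in hypoxic and 1.10, 0.48 and 1.06 in other tumor cells. Vegfa had ratios of 0.01, -0.26 and -0.23 in hypoxic cells. With each gene averaged over the 3 RT libraries, the medians over genes were -0.21 for glycolysis, -0.21 for other HIF targets and -0.34 for oxygen sensing in hypoxic cells. In other tumor cells they were -0.28, -0.03 and -0.18. By library, the median of other HIF targets in hypoxic cells was -0.04 in RT1, -0.41 in RT2 and 0.06 in RT3. Lower in each RT library in hypoxic cells were 8 of 19 glycolysis genes, 9 of 27 other HIF targets and 6 of 8 oxygen-sensing genes. Higher in each were 1, 8 and 0 of them. Of all genes, 27.3% were lower and 24.8% higher in each RT library.

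Across all genes, 76 of 5834 (1.3%) were higher and 9 (0.154%) lower by a log2 ratio of at least 1 in every RT library in hypoxic cells. The higher count was 146 without RT3, 40 at a mean of at least 50 CPM and 250 without barcodes with at least 2 UMIs of other cell type markers. The lower count was 14 without RT1 or RT3, 17 without RT2, 4 at 50 CPM, 77 without those barcodes and 3 when only leukocyte and endothelial markers were counted. In other tumor cells 53 of 6014 (0.881%) were higher and 8 (0.133%) lower. All of the 76 higher and the 9 lower genes had the same sign in every RT library of other tumor cells. There 32 of the 76 and 2 of the 9 also passed the threshold. Of all genes in other tumor cells, 25% were higher and 39.8% lower in each RT library. The 9 lower genes included Vcam1, an adhesion molecule (-1.76 ± 0.18, mean ± SD over 3 RT libraries), Srf, the serum response factor (-1.57 ± 0.19), the heat shock gene Hspa1b (-1.66 ± 0.41), Rgs16 (-1.89 ± 0.52), Bnc1 (-1.22 ± 0.21), Nfkb2 (-1.12 ± 0.07) and Klf2, a transcription factor (-1.10 ± 0.09). Vcam1 stood at 153 CPM in NT, whereas RT1, RT2 and RT3 held 51.3, 40.6 and 42.2 CPM. In other tumor cells its ratios were -1.04, -0.82 and -0.88. Klf2 stood at 2046 CPM in NT and 953, 1022 and 900 CPM in the RT libraries, with ratios of -0.63, -0.08 and -0.74 in other tumor cells. The cholesterol synthesis enzymes Nsdhl and Cyp51 completed the set, at -1.74 ± 0.54 and -1.54 ± 0.49 in hypoxic and -1.42 ± 0.27 and -1.83 ± 0.51 in other tumor cells. Over the lipid and cholesterol list the median was -0.31 in hypoxic and -0.72 in other tumor cells. Immediate early genes had a median of -0.79 in hypoxic cells, with 12 of 14 measured members lower in each RT library, and -0.37 in other tumor cells. Over all genes in hypoxic cells the median was -0.04, and 27.3% were lower in each RT library.

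Summed macrophage markers were higher in each RT library than in NT. In hypoxic cells they stood at 39.8 CPM in NT and at 109, 80.1 and 57.3 CPM in RT1, RT2 and RT3. In other tumor cells they stood at 26.4 CPM and at 112, 144 and 87.1 CPM. Without barcodes with at least 2 UMIs of leukocyte or endothelial markers, 79 genes were higher in RT. Many of the 76 higher genes rested on little NT signal, and 23 of them had at least 50 UMIs in the 191 NT cells. The 9 with the largest smallest ratio were Pam16, Pomgnt1, Rhox2h, Rpl9, Lgals3bp, Gtf2h1, Mrpl14, Ilk and Rnaseh1. Of these only Rpl9, a ribosomal protein, was abundant, at 672 CPM in NT and 2977, 2459 and 2179 CPM in the RT libraries, with ratios of 1.99, 1.86 and 1.49 in other tumor cells. Pam16, a subunit of the mitochondrial import motor, rested on 19 UMIs in NT and had ratios of 2.08, 1.81 and 2.07 in hypoxic and 1.63, 1.78 and 1.29 in other tumor cells. Lgals3bp, a secreted galectin ligand, had ratios of 2.12, 2.42 and 1.66 in hypoxic cells, but their mean turned to -0.36 once barcodes with at least 2 UMIs of other cell type markers were left out. That of Ilk turned to -0.0842 there, where 75 of the 735 cells remained, 5 of them in RT2. None of the 20 listed ribosomal protein genes was among the 76. Both Rpl9 and Rpl9-ps6, which is named as its pseudogene, were, and these and the Rhox2 paralogs are similar copies whose reads the counting could have split. Whether differences in the handling of the NT and RT libraries bear on these genes was not tested, and with 1 NT library they cannot be told apart from the treatment.

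**Figure D5:**
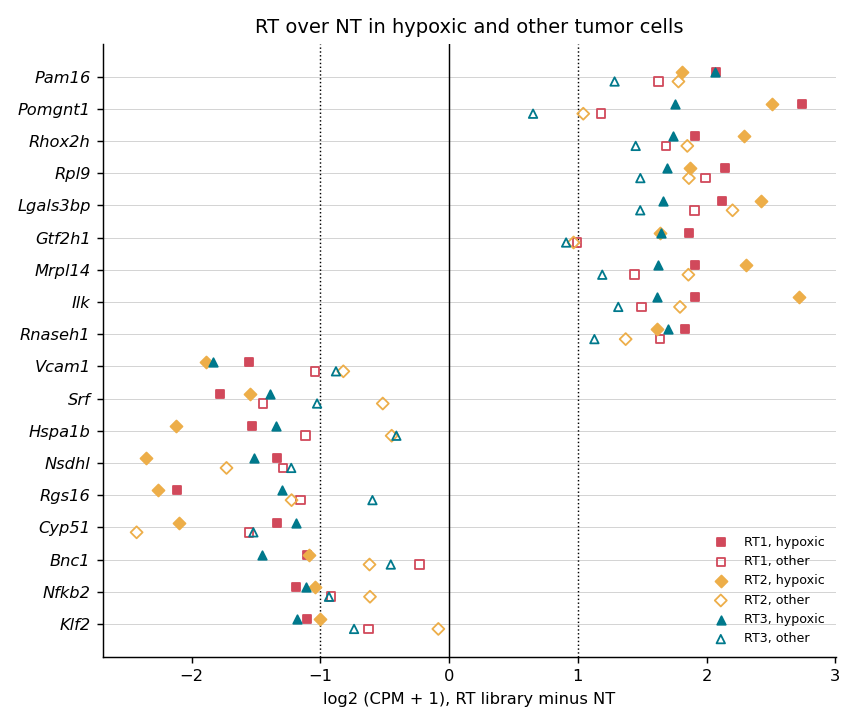
Log2 ratio of each RT library to NT for 9 leading higher and the 9 lower genes in hypoxic cells, filled symbols for hypoxic and open symbols for other tumor cells, with dotted lines at -1 and 1. All filled points lie beyond the dotted lines, by the rule that chose the genes, while the open points were not used to choose them.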

How the data were processed

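The 4 libraries were made from dissociated tumors with the SeekOne MM 3′ kit, and the authors deposited UMI counts per gene and barcode, which are raw counts with no normalization. The submitters' processing notes name STAR 2.5.1b, featureCounts (Subread 1.6.4), Cell Ranger and the genome GRCm39 (mm39). The tables were joined on gene symbol (18605 genes, as the RT2 table lists), a symbol listed more than once kept its entries apart, and the RT2 table held no barcode above 11.95% mitochondrial UMIs, for a reason not given in the sources used here. No doublet caller was run. Totals were 69667759 UMIs in NT, 78585759 in RT1, 108699844 in RT2 and 85660188 in RT3, and the hypoxic cells held 911737 (RT2) to 2280534 (RT1) UMIs.

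Counts were summed over cells of a class within a library, scaled to CPM and compared as log2(CPM + 1). Genes with a mean of at least 20 CPM were tested, and a gene was called when its log2 ratio reached 1 in every library (RT over NT: in all 3 RT libraries). The rule for hypoxic over other tumor cells was run on simulated counts that held counting error only and planted changes larger than the threshold. It was not run on simulated counts for RT over NT. Errors are SDs over libraries, and intervals are exact at 95% (Clopper-Pearson). Shares of cells with a UMI were read after seeded thinning to 2000 UMIs, which left out no cell. Named genes were the 15 highest and 10 lowest called, the 4 most abundant of each of 32 lists (497 entries) with any called member, and up to 10 in each direction for RT over NT, of which some items are not reported here, with the mitochondrial genes as a group. A few others were chosen after their values were seen, as were the genes shown by class of the 5-gene share. The cells, lists and genes were chosen with earlier results of these data known. Alternatives covered the gates, the threshold, the filter, the pseudocount, the scaling and each library in turn. Python 3.11.15, numpy 2.4.6, pandas 2.3.3, scipy 1.17.1 and matplotlib 3.10.9 were used.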

Additional observations from a re-analysis of the deposited data

Results flagged for a closer look

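Several lists had a median ratio of opposite sign in NT and in every RT library, or in hypoxic and other tumor cells, and none of these differences was tested. For hypoxic over other tumor cells, the median of the immediate early genes was 0.06 in NT and -0.35 on average over the RT libraries (difference -0.408). That of the p53 targets was 0.09 and -0.06 (difference -0.156), and that of the unfolded protein response 0.01 and -0.14 (difference -0.144). For RT over NT, the S-phase median averaged 0.20 in hypoxic and -0.25 in other tumor cells (difference 0.452), positive in hypoxic and negative in other cells of RT1, RT2 and RT3. Pcna, the replication clamp, followed this pattern, with ratios of 0.33, 0.28 and 0.22 in hypoxic and -0.16, -0.51 and -0.20 in other tumor cells. The secreted and immune genes averaged -0.16 in hypoxic and 0.32 in other tumor cells (difference -0.476), with Ptgs2 at -0.29, -0.50 and -0.35 against 0.45, 0.72 and 0.50. The 5 measured angiogenic ligands averaged 0.23 and -0.22 (difference 0.45). All of these rest on the same NT library.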

How the results depend on the processing

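Hypoxic over other tumor cells gave 29 higher genes. Other settings gave 16 at a threshold of 0.2% and 14 when the share was read after thinning, and leaving out 1 library gave 30 to 44. The 2 lower genes became 38 at 0.5%, 18 without barcodes with 2 or more UMIs of other cell type markers, 7 with at least 1 UMI in every sum, 6 against cells under 0.1%, 5 without leukocyte or endothelial markers (chosen after seeing the data), 1 at 10% mitochondrial UMIs or with per-cell CPM, and 0 at 0.2%, after thinning, at 50 CPM or with a pseudocount of 5. Leaving out 1 library gave 2 to 7. For RT over NT, the 76 higher genes became 122 at 0.5%, 250 without other cell type markers, 40 at 50 CPM and 192 with at least 1 UMI in every sum, and 84 to 146 without 1 RT library. The 9 lower genes became 5 at 0.2% and after thinning, 77 without other cell type markers, 3 without leukocyte or endothelial markers, 4 at 50 CPM, 32 with at least 1 UMI in every sum, and 14 to 17 without 1 RT library. Fewer libraries make the rule easier to meet. The share difference ran from -1.36 to 0.282 points without 1 RT library.

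Leaving out every barcode with 2 or more UMIs of other cell type markers, fibroblast genes included, kept 75 of the 735 cells, 5 of them in RT2. There Apln (-0.35) and Homer1 (-0.28) turned negative in hypoxic over other cells, as did Lgals3bp (-0.36) and Ilk (-0.0842) in RT over NT. Of 558 values of the 31 called genes under 18 settings, 556 kept their sign, as did 144 of 144 medians of the 8 lists that were rerun (of 32) and 286 of 288 ratios of 18 named RT genes under 16 settings. Beyond the spread between libraries moved 77, 17 and 59 of these, besides the 2 gene values and 2 RT ratios that turned. In the 75 cells Ankrd44 fell to 0.23 and Nt5e to 0.53, and the lipid and cholesterol median, -0.02 at its highest, was -1.14. Reading the share after thinning put 1154 cells at or above the threshold, of which 526 were new, while 107 of the 735 left. No paired analysis was possible because NT is 1 library, so that the groups share fewer than 2 replicate numbers. RT2 had the fewest hypoxic cells (78) and hypoxic UMIs (911737).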

Other observations

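Hypoxic cells with a Nos2 UMI differed in other genes from those without one. Slpi stood at 233 CPM in the 51 NT cells with Nos2 and at 80.1 CPM in the 140 without, at 289 and 76.1 CPM in RT1 and at 247 and 118 CPM in RT3. In RT2, where 12 cells carried Nos2, it was 196 and 166 CPM. Tnfrsf9 was higher in the Nos2 cells of all 4 libraries, at 241 against 65.8 CPM in NT, 227 against 92.0 in RT1, 111 against 39.5 in RT2 and 221 against 101 in RT3. Leukocyte barcodes also held Tnfrsf9, at 76.5 to 192 CPM, and the part of leukocyte RNA in this difference was not tested. Areg, which encodes the growth factor amphiregulin, stood at 82.4 against 3.56 CPM in NT and rested on 4 UMIs in the NT cells without Nos2, with a smaller difference in RT1 (98.9 against 37.7 CPM) and RT3 (72.3 against 36.3 CPM) and little in RT2 (6.53 against 5.27 CPM, the first from 1 UMI). The selecting gene Bnip3 had log2 ratios of 0.13, 0.22, 0.14 and 0.38 in NT, RT1, RT2 and RT3, and Slc2a1 0.49, 0.53, 0.82 and 0.54. Other genes changed sign between libraries, with ratios in the same order of 1.18, -0.37, -0.39 and 2.08 for Car9, 1.90, -0.17, 1.20 and 0.50 for Hmox1 and 0.22, 0.05, -0.95 and -0.20 for Adm. The cells with Nos2 were deeper, with medians of 7755, 8546, 12741 and 9649 UMIs against 6977, 5608, 8780 and 5597, and the part of depth in these values was not tested. The genes were chosen after their values were seen.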
